A study of Rattus norvegicus with 8 samples.

Results

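The transcriptome of thigh skeletal muscle was described in 4 control rats of the Wistar Han strain, each measured on 1 Illumina rat bead array. The labels give these rats standard laboratory chow and the control side of a 28-day feeding study, and their age and sex are not stated in the labels. The series holds 8 arrays in all, and the other 4, from rats given a diet with 150 ppm of compound 177 (a sulfonyl isoxazoline), were not compared with the controls here. The design text counts 4 control rats, so each replicate was treated as 1 rat. The description rests on the 8731 of 22523 probes (38.8%) that were detected on all 4 control arrays, with a detection p below 0.05. In such data the detection p is the share of negative control beads at least as bright as the probe. Of these probes 6516 carried a gene symbol, for 6407 genes, and 2215 had none and are only counted.

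Skeletal muscle is built from multinucleated fibres that differ in the speed and fuel of contraction. Fast fibres use fast isoforms of myosin and troponin and lean on glycogen and glycolysis, whereas slow fibres use slow isoforms of the same proteins and are rich in mitochondria and myoglobin. Between the fibres lie blood vessels, fibroblasts with their collagen matrix, macrophages, fat cells, nerve endings and satellite cells. A piece of muscle ground up whole yields RNA of all of these, so that fewer cells of a type and less RNA per cell cannot be told apart.

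Levels are background-corrected, quantile-normalised signals on the log2 scale. A percentile is the share of the 8731 probes that were no brighter. Probes bind with different strength, so an order of signals is an order of probes and not of transcript numbers. Between 9634 (replicate 2) and 10620 (replicate 3) probes were detected per array, and the median raw intensity ran from 98.6 to 113.1. Detected probes spanned mean signals of 5.42 to 15.54, with a median of 8.08. At the edge of the rule, Xiap, Pex26 and Tubb2b had a largest detection p of 0.0497 and were kept, and Prm2, Chuk and Lsamp had 0.0509 and were left out.

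The arrays differed in named groups of genes. Replicate 2 carried liver transcripts and less haemoglobin signal, replicate 1 had the lowest slow-fibre signals, and replicate 4 had the lowest signals of collagen, matrix and macrophage genes. Replicate 2 stood apart most: its Pearson correlations with the other arrays over the 8731 probes were 0.9705 to 0.9812, against 0.9812 to 0.9888 among the other three. The overall values of the spread, and printed SDs that fell by more than 1.5 times without it, are therefore also given without it.

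The brightest signals came from the contractile apparatus of fast fibres, from glycolysis and from ATP synthase. The 20 brightest probes held 6.83% ± 0.51 (SD, n = 4) of the summed signal of the detected probes. The brightest 100 held 25.6% ± 1.67 and the brightest 1000 held 73.8% ± 1.70. These shares were taken on linear, background-corrected signals before quantile normalisation. Of the 100 brightest, 66 were named, for 65 genes. Of these genes 11 belonged to the fast-fibre list, 12 to the list of respiratory complexes II to V, 7 to glycolysis, 5 to the shared sarcomere list and 5 to the cytosolic ribosome. The slow-fibre list had 0 members among them.

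Tnnc2, the calcium-binding troponin C of fast fibres, was the brightest probe, at 15.51, 15.65, 15.51 and 15.49 in replicates 1 to 4. Acta1, the skeletal muscle actin, read 15.54, 15.58, 15.48 and 15.55. Tnnt3, the fast troponin T, read 15.37, 15.41, 15.58 and 15.58. The highest raw intensity on an array was 42838 to 57916, and whether the scanner's range limited the brightest probes was not tested.

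**Figure D1:**
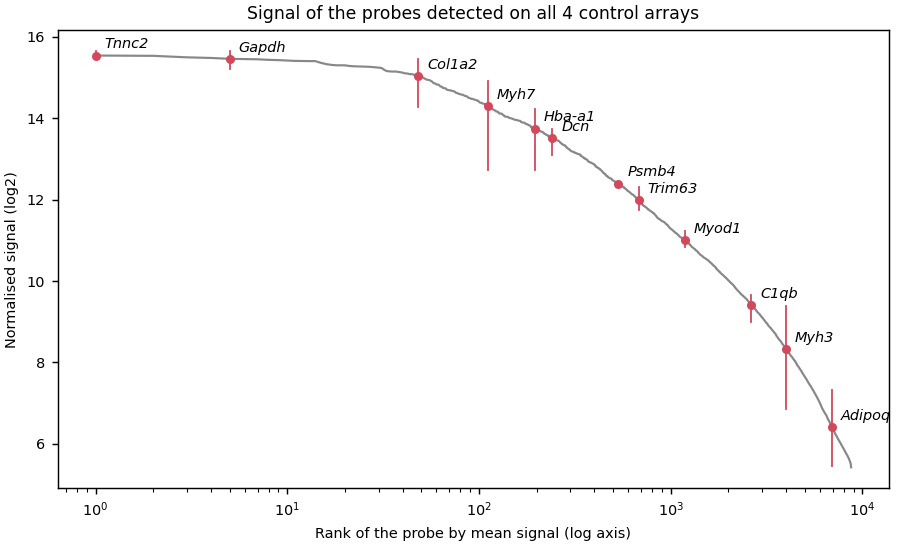
Mean normalised signal (log2, vertical axis) of the 8731 detected probes against their rank (log axis, grey line). Red points mark named genes and red bars run from the lowest to the highest of the 4 arrays: Tnnc2, Gapdh and Psmb4 have short bars, and Myh7, Myh3, Col1a2 and Adipoq long ones.

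All 13 fast-fibre genes on the array were detected, and all 13 lay in the top 10% of the signal, with a median percentile of 99.6. Besides the troponins they include Myl1 and Myl11, light chains of fast myosin, at means of 15.44 ± 0.08 and 15.30 ± 0.13 (SD, n = 4), Actn3, the fast Z-disc actinin, at 15.26 ± 0.09, and Tnni2, the fast troponin I, at 15.12 ± 0.09. Without replicate 2 the SD was 0.03 for Myl11, 0.04 for Actn3 and 0.01 for Tnnc2, and that of the list mean 0.03. Pvalb, parvalbumin, a calcium buffer of the fastest fibres, read 15.01 ± 0.11. The fast myosin heavy chain Myh4 (type IIb) was the one member with an SD above 0.5, at 14.85, 14.90, 14.41 and 13.64, and was lowest in replicate 4. Myh2 (type IIa) read 12.67, 12.68, 12.75 and 13.02 and was highest there.

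Fuel genes followed closely in signal. Of 18 glycolytic enzymes all were detected and 13 lay in the top 10%. Gapdh read 15.65, 15.51, 15.47 and 15.21, Aldoa, the muscle aldolase, 15.25, 15.45, 15.45 and 15.48, and Tpi1, triosephosphate isomerase, 15.33 ± 0.04 (SD, n = 4). Enzymes of the same steps that are typical of other tissues had lower signals, with Aldoc at the 16.2nd and Eno1 at the 49.4th percentile. Pygm, the muscle glycogen phosphorylase, averaged 15.27 ± 0.07, and Ckm, the muscle creatine kinase that buffers ATP, 15.41 ± 0.10, with an SD of 0.05 without replicate 2.

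Mitochondrial genes were nearly as bright. Atp5f1b and Atp5f1a, the beta and alpha subunits of ATP synthase, averaged 15.45 ± 0.11 and 15.45 ± 0.12 (SD, n = 4), at ranks 6 and 7. In the list of complexes II to V, 28 of 30 detected genes lay in the top 10%, and in complex I 23 of 26, led by Ndufb9 at 14.81 ± 0.11. The citric acid cycle list had 14 of 21 genes there, led by Mdh2, the mitochondrial malate dehydrogenase, at 14.35 ± 0.20. Among 26 genes of fatty acid handling 12 lay there, led by Acadm, which starts the oxidation of medium-chain fatty acids, at 14.35 ± 0.17. Mb, myoglobin, read 14.48, 14.98, 14.99 and 15.31.

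Genes of protein synthesis and turnover came next. Rplp0, a stalk protein of the ribosome, averaged 15.26 ± 0.07 (SD, n = 4, and 0.04 without replicate 2), and 46 of 56 detected cytosolic ribosomal genes lay in the top 10%, against 13 of 57 mitochondrial ribosomal genes. The proteasome list had 18 of 32 genes there. Of the ubiquitin ligases of muscle atrophy, Trim63 averaged 11.98 ± 0.29, at the 92.2nd percentile, and Fbxo32 8.25 ± 0.48, at the 53.0th. Mstn, myostatin, which limits muscle growth, averaged 7.10 ± 0.40, at the 32.9th percentile. Hspb6, a small heat shock protein of muscle, led its list at 15.14 ± 0.28.

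Other bright probes belong to genes that are not muscle markers. Akr1c12, an aldo-keto reductase, averaged 15.40 ± 0.22 (SD, n = 4) at rank 14. Tpt1, the translationally controlled tumour protein, averaged 15.40 ± 0.09 at rank 13. Sv2b, a glycoprotein of synaptic vesicles, averaged 15.25 ± 0.17 at rank 29, on 1 probe, and none of the detected brain markers lay in the top 10%.

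The labelled tissue was checked by its markers. All 10 muscle identity genes on the array were detected, with a median percentile of 99.2, including Des, the muscle intermediate filament desmin, at 15.10, 15.18, 15.18 and 15.12. Cells other than fibres were present at lower signals: the median percentile was 83.2 for 12 detected fibroblast and tendon genes, 51.1 for 11 endothelial, 41.3 for 10 macrophage and 25.1 for 7 satellite cell genes. Of 8 neutrophil and 7 epithelial or skin genes on the array, 0 were detected on all 4 arrays. Pax7, the defining transcription factor of satellite cells, was not detected on any array, and neither were Lep and Ucp1, markers of white and brown fat, or Actc1, the cardiac actin. Myod1, a muscle transcription factor also held by satellite cells, averaged 11.001 ± 0.18 (SD, n = 4).

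Most probes differed little between the rats. The median SD over the 4 arrays was 0.19, a 1.14-fold spread, and 0.16 over the same probes without replicate 2. The median SD was 0.18 in the dimmest 10% of probes, 0.27 between the 10th and 20th percentiles of signal, and lower in each brighter bin, down to 0.14 in the top 10%. An SD above 0.5 was found for 560 probes (6.41%) and an SD above 1 for 72. Without replicate 2 these counts were 434 and 54, and the number above 2 was 12 with it and 3 without it. Of the 72 probes with an SD above 1, replicate 2 was the array furthest from the other three for 43, in 34 of them as the highest, against 9 for replicate 1, 8 for replicate 3 and 12 for replicate 4.

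**Figure D2:**
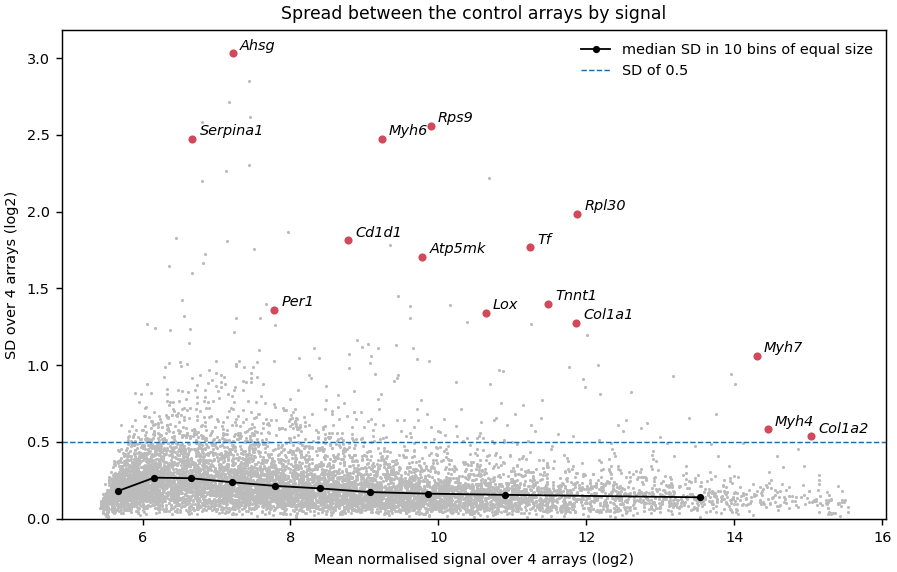
SD over the 4 control arrays against mean normalised signal, both on the log2 scale, 1 grey point per detected probe. The black line joins the median SD in 10 bins of equal size, between 0.14 and 0.27, and the dashed line marks 0.5, with named genes in red, led by Ahsg at an SD of 3.03.

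The 10 smallest SDs among the brightest 25% of probes were below 0.03. Psmb4, a proteasome subunit, read 12.39, 12.39, 12.39 and 12.40. Cab39, a scaffold of the kinase LKB1, read 11.22, 11.21, 11.19 and 11.20, and Rpl14, a ribosomal protein, 14.23, 14.28, 14.25 and 14.23. The other 7 were those of Bccip, Dctn2, Hspe1, Cwc15, Nae1, Insig2 and Chchd3, each of 0.01 or 0.02 on the log2 scale. Bccip and Chchd3 each had 2 detected probes, and the SD of the less steady one was 0.14 and 0.13. Over whole lists, the mean deviation varied least for the proteasome, with an SD of 0.03 between arrays, and for endothelial, satellite cell, cytosolic ribosomal and fast-fibre genes it was 0.04 to 0.05. The mean of the 17 housekeeping genes had an SD of 0.06. Single members of that list ran from 0.07 for Rplp0 to 0.84 for Tfrc, the transferrin receptor. Actb, at 0.09 on the brightest of its 3 detected probes, and Gapdh, at 0.18, lay below the median of all probes, 0.19. The largest SD among the 3 Actb probes was 0.29, above that median. In the top 10% of signal, which holds Gapdh and the brightest Actb probe, the median was 0.14. This was above the SD of that Actb probe and below that of Gapdh.

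**Figure D3:**
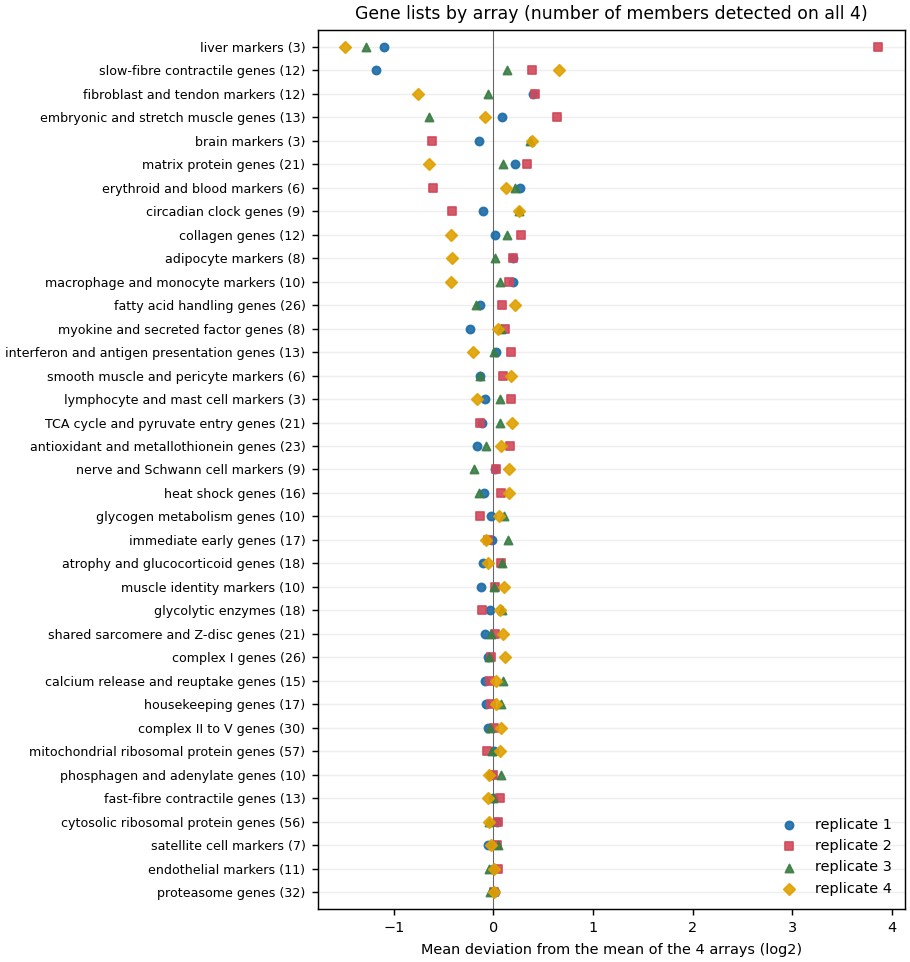
Mean deviation of each gene list on each control array (log2, horizontal axis) from the mean of the 4 arrays, with lists ordered by their SD and the number of members in brackets. Lists with under 3 detected members are left out; liver markers in replicate 2 reach 3.86, slow-fibre genes in replicate 1 lie at -1.18 and the proteasome stays within 0.04 of 0.

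Replicate 2 carried a set of liver transcripts that the other three lacked or held near the detection limit. Ahsg, the plasma protein fetuin-A made by liver, had the largest SD of all named probes, with 5.41, 11.71, 6.39 and 5.37 in replicates 1 to 4. Serpina1, the antitrypsin of plasma, read 5.66, 10.38, 5.31 and 5.34, and Cyp2e1, a liver cytochrome P450, 6.98, 10.82, 5.81 and 6.15. Replicate 2 was the highest for all 3 liver genes detected on every array (25.3% of all probes were highest in it). Alb, serum albumin, was detected on 3 arrays and read 5.24, 12.49, 6.80 and 6.26. The lowest signal of a detected probe was 5.30 to 5.46 on the 4 arrays.

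Other genes of the liver list, and liver genes outside it, were also highest in replicate 2. The list has 11 genes on the array, of which 3 were detected on all 4 arrays and 8 on some. Fgb and Ttr, the fibrinogen beta chain and transthyretin, were detected in replicate 2 alone, at 9.56 and 9.15. Of the 20 probes with the largest SD, liver-made plasma proteins and enzymes besides these were Ambp, Fetub, Fabp1, F2, Hrg, Itih3, Hpd, Cyp2c23, Tf, Cyp2d2 and Bhmt, each highest in replicate 2. Tf, transferrin, read 10.50, 13.88, 10.46 and 10.11, an 11.5-fold excess in replicate 2 over the mean log2 signal of the others. Ambp read 5.80, 11.68, 6.56 and 5.74, a 50.1-fold excess. Tf and Itih3 were thus well above the detection limit in the other arrays too, Itih3 at 7.17, 7.02 and 6.92. Without replicate 2 the SD of the liver list was 0.20, against 2.58 with it, and the SDs of these 14 genes lay between 0.03 and 0.60. Among probes detected in replicate 2 alone, 26 exceeded a signal of 8, against 0 in replicate 1, 0 in replicate 3 and 1 in replicate 4. Besides Fgb and Ttr they include Apoa2, Apoc1, Plg, Serpinc1, Ass1 and Pon1, which are also genes of liver.

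Blood genes were lowest in the same array. Hba-a1, an alpha globin, read 14.22, 12.74, 13.92 and 14.10, and Hbb and Hbb-b1, beta globins, read 12.80, 11.57, 12.79 and 12.96, and 11.20, 9.40, 11.58 and 11.11. The blood list averaged -0.61 in replicate 2 and 0.12 to 0.27 in the others, and 5 of its 6 detected members were lowest there (35.4% of all probes were). Its SD was 0.41 with replicate 2 and 0.07 without it. Replicate 2 also had the lowest maximum raw intensity, 42838, and missed 587 probes that the other three all detected, against 77 to 177 for the others. The part of any of these in the liver signals was not tested.

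**Figure D4:**
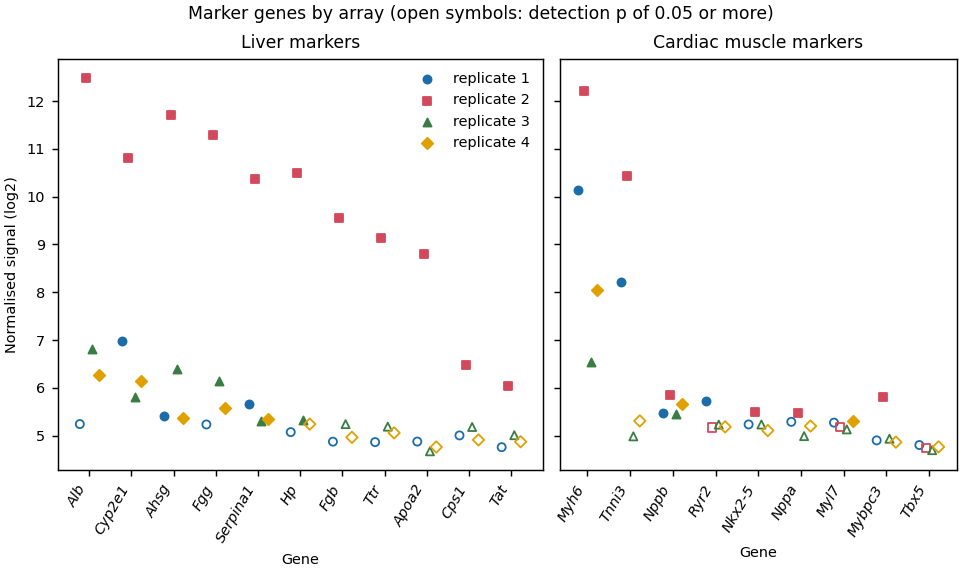
Normalised signal (log2, vertical axis) of every liver (left) and cardiac (right) marker on the array, 1 symbol per control array. Filled symbols were detected and open ones were not; replicate 2 is highest for all 11 liver genes, and Myh6 and Tnni3 lie highest in replicate 2 and next in replicate 1.

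A cardiac signal varied between the arrays as well. Myh6, the alpha myosin heavy chain of heart, read 10.15, 12.21, 6.54 and 8.05, and Tnnt2, the cardiac troponin T that is also made in immature muscle, 9.61, 11.76, 7.83 and 8.20. The SD of Tnnt2 was 1.78 with replicate 2 and 0.94 without it. Tnni3, the cardiac troponin I, was detected in replicates 1 and 2 only, at 8.21 and 10.44, and not in replicates 3 and 4, at 4.98 and 5.31. Other defining heart genes stayed at the limit: Nppa, Myl7, Mybpc3, Ryr2 and Nkx2-5 were each detected on 1 array, with no signal above 5.81, and Tbx5 on 0. Of 9 cardiac genes on the array, 2 were detected on all 4, Myh6 and Nppb. Nppb was also near the limit, at 5.48, 5.84, 5.45 and 5.66. Replicates 3 and 4 were thus low for Myh6, Tnnt2 and Tnni3, and replicates 1 and 2 high.

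Slow-fibre genes were lowest in replicate 1. All 12 on the array were detected, and 11 of the 12 were lowest in that array (19.1% of all probes were). Their mean deviation was -1.18 in replicate 1, and 0.39, 0.13 and 0.66 in replicates 2 to 4, giving an SD of 0.81 between arrays, against 0.05 for the 13 fast-fibre genes. Without replicate 1 the slow-fibre SD was 0.26. An SD above 0.5 was found for 9 of the 12 (6.41% of all probes). The 2 lists differ in brightness. All 13 fast-fibre genes lay in the top 10% of signal, where the median SD of single probes was 0.14. The slow-fibre genes ran from the 16.4th percentile to the 98.7th, that of Myh7, with an SD of 1.06.

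Among filament genes, Myh7, the slow myosin heavy chain, read 12.72, 14.92, 14.64 and 14.92, a 4.31-fold deficit in replicate 1 relative to the mean of the others. Myl3 and Myl2, slow myosin light chains, read 12.58, 14.72, 14.23 and 14.30, and 5.98, 8.01, 7.80 and 8.48. The slow troponins differed most. Tnnt1 read 9.44, 11.80, 12.07 and 12.62, Tnni1 7.64, 10.07, 9.87 and 10.88, and Tnnc1 10.28, 12.32, 12.42 and 13.03, deficits of 6.59-, 6.20- and 4.97-fold. In each of these 6 genes replicate 1 lay below the other three.

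Other members of the slow-fibre list differed in how far they followed. Atp2a2, the slow calcium pump SERCA2, read 12.71, 14.54, 14.20 and 14.58. The 15 genes of calcium release and reuptake, a list that also holds Atp2a2, had a mean deviation of -0.08 in replicate 1. Of these 15 genes 4 were lowest there, against 19.1% of all probes. Myoz2, a Z-disc protein of slow fibres, read 11.88, 13.53, 13.20 and 14.06. Tpm3, the slow tropomyosin, spread less, at 8.29, 8.89, 8.68 and 8.80. Csrp3, muscle LIM protein, was the exception and was lowest in replicate 3, at 12.63, 13.24, 11.43 and 13.10. Outside the list, Ldhb, the lactate dehydrogenase chain of oxidative tissue, read 10.997, 12.28, 11.66 and 12.9998, and Vegfb, a growth factor, 5.68, 8.55, 7.81 and 8.30. Both were lowest in replicate 1, as was Mb above.

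**Figure D5:**
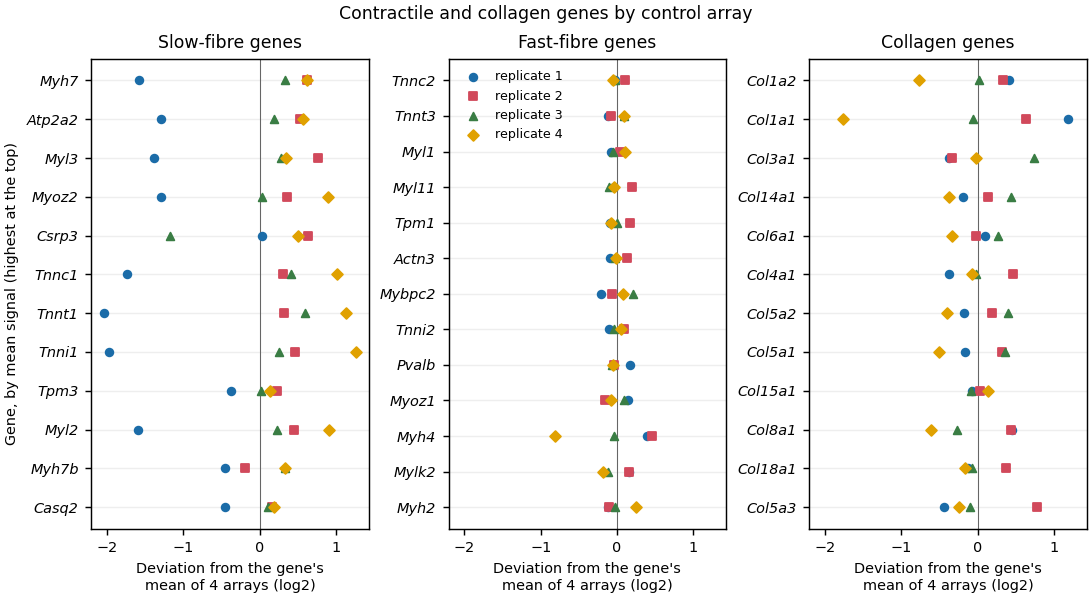
Deviation of each gene from its own mean over the 4 control arrays (log2, horizontal axis) for slow-fibre, fast-fibre and collagen genes, with 1 symbol per array and genes ordered by mean signal. Replicate 1 lies lowest for 11 of 12 slow-fibre genes, fast-fibre genes other than Myh4 stay close to 0, and replicate 4 lies lowest for 8 of 12 collagen genes.

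The sequence before the start of a slow and a fast gene is shown as a description only. Any part of it in the spread between arrays was not tested. Both runs are the 250 bases before the gene's start in RefSeq (GRCr8), read 5′ to 3′ on the gene's strand, at chr8:119616844-119617093 (plus strand) for Myl3 and chr1:207024240-207024489 (plus strand) for Tnni2, with motif matches in capitals.
Myl3: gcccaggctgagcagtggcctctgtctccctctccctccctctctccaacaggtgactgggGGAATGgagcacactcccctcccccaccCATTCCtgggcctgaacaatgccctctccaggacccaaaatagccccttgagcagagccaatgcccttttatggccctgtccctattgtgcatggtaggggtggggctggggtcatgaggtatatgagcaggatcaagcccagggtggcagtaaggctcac
Tnni2: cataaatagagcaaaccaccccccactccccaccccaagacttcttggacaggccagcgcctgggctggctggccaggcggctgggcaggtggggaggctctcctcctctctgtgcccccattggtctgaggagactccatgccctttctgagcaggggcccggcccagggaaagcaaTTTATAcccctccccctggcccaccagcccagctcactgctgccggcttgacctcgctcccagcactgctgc
In Myl3 the capitals mark 2 matches to the MCAT element, CATTCC, 1 on each strand, at -189 and -161 from the start. In Tnni2 they mark 1 match to the letters of the TATA box, TATAAA, on the opposite strand at -72.

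The 4 motifs searched on both strands, over 250 bases before and 50 after the start, were the TATA box, the MCAT element, the E-box CAGCTG and the MEF2 site, of which none overlap in the runs shown. Promoters were found for 9 slow-fibre and 11 fast-fibre genes. MCAT letters were in 1 of the 9, that of Myl3 shown above, and in 3 of the 11, against 13.9% of all 27457 promoters. The E-box was in 3 and 2, against 15.1%, the TATA box in 1 and 4, against 14.3%, and the MEF2 site in 2 and 2, against 3.37%. Over the promoters of the 5379 genes detected on all 4 arrays and matched, the shares were 11.3% for MCAT, 16.7% for the E-box, 7.85% for the TATA box and 1.84% for the MEF2 site. A match of letters is a description of the sequence and not a measured site.

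Replicate 4 had the lowest signals of connective tissue. Of 21 detected matrix genes 18 were lowest there (24.4% of all probes were), with a mean deviation of -0.65, against 0.10 to 0.34 in the other three. Of 12 collagens 8 were lowest in it, with a mean deviation of -0.43. The SD of the collagen list between arrays was 0.30, and 0.13 without replicate 4.

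Col1a1, a chain of type I collagen, read 13.04, 12.49, 11.80 and 10.10, and Col1a2, the other chain, 15.45, 15.37, 15.05 and 14.27. Col3a1, type III collagen, was not lowest there, at 10.51, 10.56, 11.62 and 10.86. Lox, which crosslinks collagen, read 11.40, 11.62, 10.84 and 8.69, a 6.06-fold deficit in replicate 4. Fmod, fibromodulin of tendon, read 11.42, 11.16, 10.38 and 8.58, and Tnmd, tenomodulin, the tendon marker, 10.99, 10.72, 10.23 and 8.98. Other matrix genes spread less: Dcn, decorin, averaged 13.50 ± 0.28 and Sparc, which binds collagen, 12.94 ± 0.20 (SD, n = 4).

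Macrophage genes and some adipocyte genes had lower signals in the same array. Of 10 macrophage genes 8 were lowest in replicate 4 (24.4% of all probes were), with a mean deviation of -0.42. C1qb, a chain of complement C1q made by macrophages, read 9.66, 9.57, 9.45 and 8.98, and Ctss, cathepsin S, 9.56, 9.47, 9.16 and 8.54. Of 8 adipocyte genes 4 were lowest there and 2 highest, against 24.4% and 28.3% of all probes, with a mean deviation of -0.41. Cfd, adipsin, read 12.53, 11.43, 11.55 and 9.50, and Adipoq, adiponectin, 7.31, 6.41, 6.48 and 5.46, whereas Fabp4, a fatty acid carrier also found in endothelium, read 11.95, 11.89, 11.91 and 12.05, and Lipe, the hormone-sensitive lipase, 7.38, 7.4010, 7.69 and 7.81, both highest in replicate 4. Endothelial genes had a mean deviation of 0.0039 in replicate 4. Sfrp2, a secreted Wnt modulator of fibroblasts, read 8.60, 7.16, 7.79 and 5.51.

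Several genes were highest in replicate 4. Padi2, a peptidylarginine deiminase, read 8.38, 8.94, 8.62 and 10.82, and Chrne, the adult subunit of the acetylcholine receptor at the nerve-muscle junction, 6.69, 6.89, 6.26 and 8.41. Pmp22 and Mal, myelin genes of Schwann cells, read 10.85, 11.13, 11.11 and 12.14, and 6.85, 7.47, 7.0007 and 8.29. Of the 9 detected nerve and Schwann cell genes 4 were highest and 2 lowest there, against 28.3% and 24.4% of all probes. Cdh19, a cadherin of Schwann cells, read 8.03, 8.13, 7.89 and 6.81. Oxidative genes were slightly higher there: 15 of 21 citric acid cycle genes and 17 of 26 fatty acid genes were highest in it (28.3% of all probes were), with mean deviations of 0.18 and 0.22.

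Some clock genes and Ankrd1 divided replicates 1 and 2 from replicates 3 and 4. Of 9 detected clock genes, 4 were higher in both replicates 3 and 4 than in both others, 3 were lower and 2 overlapped, against 24.9% higher and 22.2% lower over all probes. Per1 and Per2, period genes of the circadian clock, read 7.20, 6.16, 9.21 and 8.53, and 8.57, 7.65, 10.04 and 9.91, both higher in replicates 3 and 4. Ankrd1, a stretch-induced repeat protein of the sarcomere, ran the other way, at 11.03, 10.39, 8.27 and 8.77. Nr4a3, an immediate early nuclear receptor, read 6.89, 7.07, 9.13 and 8.004, whereas Fos and Egr1, immediate early transcription factors, were lowest in replicate 4 at 6.49 and 7.83. Bhlhe40, a repressor of the clock, read 10.84, 10.33, 10.98 and 11.10, with the same pairs higher and lower but less far apart. Dbp, a clock output gene, read 5.90, 6.43, 6.41 and 6.33, and its pairs overlapped, as did those of Nr1d1, a repressor of the clock, at 10.49, 10.61, 10.25 and 10.79. Bmal1, an activator of the clock, was lower in replicates 3 and 4, at 5.95, 6.57, 5.65 and 5.76.

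The order of any single gene is read against these shares. The same pairs of arrays are the sets in which the authors' normalized table was scaled: its sorted values are identical between replicates 1 and 2 and between 3 and 4. Of each probe's sum of squares over the 4 arrays, a median of 40.8% lay between these pairs. Any split of the arrays into pairs takes part of this sum. The share for other pairings was not computed, so 40.8% does not by itself measure a difference between the sets. The labels state no time of day or processing day, and the part of either was not tested.

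Of the embryonic and stretch genes, 10 of the 13 detected were lowest in replicate 3 (21.1% of all probes were). Myh3, the embryonic myosin heavy chain, read 6.85, 9.38, 8.93 and 8.14. Mustn1, a musculoskeletal nuclear protein, was the brightest of the list at 13.17, 13.18, 12.35 and 12.90. Ucp3, the muscle uncoupling protein of mitochondria, read 11.40, 11.78, 10.31 and 10.62.

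A few single probes took a pair of separate levels. Rps9, a ribosomal protein, read 11.67, 7.45, 12.50 and 7.96 on one probe and 12.22, 11.01, 12.94 and 10.88 on the other, high in replicates 1 and 3 on both. Rpl30, another ribosomal protein, ran the other way, at 10.44, 13.75, 9.90 and 13.41. The mean deviation of the whole ribosomal list was -0.04 to 0.05 on the 4 arrays. Atp5mk, a small membrane subunit of ATP synthase, was low in replicate 3 only, at 10.60, 10.93, 7.25 and 10.35. Cd1d1, a lipid-presenting molecule, was high in replicate 4 only, at 8.21, 7.75, 7.70 and 11.48, and RT1-A1, a rat class I histocompatibility gene, was low there, at 8.84, 9.31, 9.72 and 7.27. Of 103 genes with several detected probes, 5 had an SD above 0.5 on all of them and 3 on only some, and the cause of the separate levels was not tested.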

How the data were processed

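Total RNA of thigh muscle was converted to biotin-labelled cRNA and hybridised to Illumina rat arrays, per the labels' protocols. The authors deposited a non-normalized table of linear intensity per probe with a detection p-value beside it, which moves in steps of 1 in 825. The deposited normalized table holds linear intensity scaled in 2 sets, and the value table of the series does not differ from it. No scanner software or background step is stated in the labels or file headers. From the 4 control arrays alone, intensities were corrected, quantile-normalised and taken to log2 by the neqc function (offset 16; limma 3.58.1, R 4.3.3), which makes the distribution of signal equal on all arrays. This chain was tested on simulated data. Further columns of the deposited tables, 16 in number, were not used.

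Gene symbols came from the platform annotation: 13793 probes had 1, 0 had several and 8730 had none, and 13752 matched RefSeq (GRCr8) by gene identifier. Of 901 list entries 722 were on the array, 2 of them by an older symbol. Lists took the brightest probe of a gene. No comparison was tested, since there is 1 group. Arrays that stood far from the others were found by Dixon's ratio of gap to range. Its 4 arrays limit the precision of every SD.

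The members and lists were chosen with earlier results of these data known. Named genes are the 20 brightest and the 20 most variable named probes, the 10 steadiest of the brightest 25%, the 5 furthest above and below the other arrays on each array, the brightest and most variable member of each list and a fixed set. List genes not detected on every array could be named as such. Genes named outside that rule (Myoz2, Tpm3, Csrp3, Tnmd, Des, Aldoc, Eno1, Lipe, Cdh19, Nr1d1, Bmal1 and Nppb, those at the detection edge and those seen in replicate 2 alone), and the choice of Myl3 and Tnni2 for their sequences, followed after the values were seen. The probe sequences were not used here. Alternatives were another scaling, background correction, offset or detection threshold, the deposited normalized table and leaving out each array.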

Additional observations from a re-analysis of the deposited data

Results flagged for a closer look

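Of 141 named genes and 38 lists, 26 genes and 4 lists had 1 array far from the other three, meaning that the gap of the highest or lowest array to its neighbour took nearly the whole range. Chance flags about 1 in 20 such groups, and the genes were partly chosen for their spread. The gap as a share of the range is given for each.

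Replicate 2 was far above the others in liver genes: Hpd and Cyp2d2 at 0.984, Bhmt at 0.976, Cyp2c23 at 0.963, Hrg at 0.941, Fetub at 0.939, Itih3 at 0.934, Serpina1 at 0.932, Fabp1 at 0.908, Tf at 0.895, F2 at 0.873, Ambp at 0.861 and Ahsg at 0.839. The mean of the liver list gave 0.926. Probes outside the described set point to the same array, with 26 probes detected in replicate 2 alone and above a signal of 8. Replicate 2 was also far above in Tnnc2 (0.874, by 0.15 on the log2 scale) and in Cd3e (0.851), a T cell gene near the limit of detection. It was far below in Hbb (0.872), the mean of the blood list (0.832) and Pstpip2 (0.851), an adaptor of the cytoskeleton that read 8.59, 5.91, 8.19 and 8.45.

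Replicate 1 was far below in Myh7 (0.871) and Aldoa (0.879) and far above in Pvalb (0.903), in Aldoa by 0.20 and in Pvalb by 0.22 on the log2 scale. Replicate 3 was far below in Atp5mk (0.843) and, by a few hundredths, in the mean of the proteasome list (0.862). Replicate 4 was far above in Cd1d1 (0.865), Ndufv3 (0.859), a subunit of complex I that read 6.41, 6.46, 6.56 and 7.49, the mean of the complex I list (0.836), and Psmb4 (1.000, by 0.02). It was far below in Fos (0.857) and Egr1 (0.831). No cause was tested.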

How the results depend on the processing

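The number of probes with an SD above 0.5 depended most on the background: it was 560 in the chosen setting, 193 without background correction, 321 with an offset of 50 and 225 in the deposited normalized table. The offset and the uncorrected background leave a larger constant in dim signals, and for the deposited table the cause was not tested. The number above an SD of 1 was 72. Leaving out each array in turn and refitting gave 482 to 796 probes above 0.5, 8808 to 9318 detected probes, a median SD of 0.165 to 0.194, a slow-fibre list SD of 0.261 (without replicate 1) to 0.986 and a collagen list SD of 0.130 (without replicate 4) to 0.372. Of these 5 summaries, those recomputed under median scaling or neqc over all 8 arrays stayed within 1.5 times. The number of detected probes was not recomputed there. The mean over a gene's probes was applied to the slow-fibre and collagen list SDs only, and a detection p below 0.01 to all 5. These also stayed within 1.5 times. Order was steadier than spread: all 100 brightest probes were shared with each setting that kept the 4 arrays, but 50 of the 100 largest SDs were shared without replicate 2. Of 141 named genes, the SD moved by over 1.5 times for 49 under median scaling (48 of them upward), 44 in the deposited normalized table, 22 without background correction and 44 without replicate 2. Of 38 list SDs, 20 moved as far under median scaling (18 upward), 16 in the deposited normalized table and 10 without replicate 4. No paired analysis was possible because 1 group was described. Spread below a signal of about 7 rests on intensities near background.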
